A study of Homo sapiens with 9 samples.

Results

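The regions described here lie in or near the 4 genes of the ALK receptor and ligand family: the receptors ALK and LTK and the ligands ALKAL1 and ALKAL2. A region belonged to a gene when its centre lay in the GRCh38 span of the gene or within 50 kb of either end. By this rule 84 of the 148797 regions were members, 68 for ALK, 8 for LTK, 7 for ALKAL1 and 1 for ALKAL2. The measure was chromatin accessibility by ATAC-seq, in which Tn5 transposase cuts and tags open DNA. The cells were SK-N-BE(2)c, an established human neuroblastoma line, transfected by lipofectamine with an antisense oligonucleotide at 100 nM and collected after 48 h. ASO2 and ASO10 are directed at NESPR, a long non-coding RNA, NCA serves as negative control, and each of the 3 groups had 3 libraries. No group was left untransfected, so all comparisons are between cells that received an oligonucleotide. The data are from a single cell line, and the labels do not say whether replicates were separate cultures, so p-values measure the spread between these libraries.

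ALK is a receptor tyrosine kinase of the insulin receptor superfamily that is expressed in the developing sympathetic nervous system, and activating mutations and amplification of ALK are known drivers of neuroblastoma. LTK is its closest relative. ALKAL1 and ALKAL2 are small secreted proteins that bind the extracellular parts of these receptors and activate them, after which adaptors link the receptors to the RAS-MAPK, PI3K-AKT and JAK-STAT pathways. RNA and protein of these genes were not analysed here, and accessibility is not a measure of either.

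Both receptor genes had a region over their start, and neither ligand gene had a region analysed here inside its span. The bases before these starts are shown because the regions at the ALK and LTK starts cover them, while the ALKAL2 start was not covered by any region analysed here. Each is the 250 bases before a RefSeq start (GRCh38.p14, minus strand, 5′ to 3′), with matches to 7 searched motifs in capitals.
ALK main start, chr2:29921587-29921836: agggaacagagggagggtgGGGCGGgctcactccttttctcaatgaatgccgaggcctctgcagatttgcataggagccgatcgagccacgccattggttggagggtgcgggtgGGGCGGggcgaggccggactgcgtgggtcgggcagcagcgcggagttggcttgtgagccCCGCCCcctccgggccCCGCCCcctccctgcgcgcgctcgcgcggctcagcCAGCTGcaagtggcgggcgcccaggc
ALK internal start, chr2:29223824-29224073: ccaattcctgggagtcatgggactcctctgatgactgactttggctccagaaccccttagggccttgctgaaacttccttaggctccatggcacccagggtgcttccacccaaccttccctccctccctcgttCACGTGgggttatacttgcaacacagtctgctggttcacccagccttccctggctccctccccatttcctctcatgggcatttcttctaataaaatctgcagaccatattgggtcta
LTK start, chr15:41513828-41514077: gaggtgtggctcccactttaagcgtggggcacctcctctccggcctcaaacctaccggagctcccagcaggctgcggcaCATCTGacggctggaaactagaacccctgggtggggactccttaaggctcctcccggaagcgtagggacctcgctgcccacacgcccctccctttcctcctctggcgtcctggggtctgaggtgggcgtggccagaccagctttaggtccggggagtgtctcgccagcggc
ALKAL2 start, chr2:288092-288341: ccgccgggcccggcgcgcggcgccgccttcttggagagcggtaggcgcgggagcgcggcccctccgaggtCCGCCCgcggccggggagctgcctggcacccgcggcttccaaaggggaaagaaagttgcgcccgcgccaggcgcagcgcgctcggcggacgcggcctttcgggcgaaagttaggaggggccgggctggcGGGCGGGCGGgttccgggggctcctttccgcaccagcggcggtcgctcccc

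Both strands were searched for the E-boxes CACGTG (of the MYC type), CAGATG (of the HAND and TWIST type) and CAGCTG, the GATA motif GATAA, the AP-1 motif TGACTCA, the GC box GGGCGG of the SP factors and the homeodomain motif TAATTA. The bases before the main ALK start held GGGCGG 4 times and CAGCTG once, and those before the ALKAL2 start held GGGCGG 3 times, 2 of them overlapping. GGGCGG was present in 42.6% and CAGCTG in 14.0% of 35116 RefSeq windows of this length. The window of the internal ALK start held a single CACGTG, which was present in 6.34% of windows. The LTK window held CAGATG once, counting both strands, a motif found in 12.2% of windows. The share of G and C was 78.4% at ALKAL2, 71.6% at the main ALK start, 66.0% at LTK and 53.6% at the internal ALK start, against a median of 58.0%. The ALKAL2 window had the most CpG pairs of the 4, with 41, against 24 and 2 at the ALK starts, 14 at LTK and a median of 11. A match is a string of letters and no evidence that a factor was bound.

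Total counts ranged from 7293565 in ASO2 replicate 1 to 10948569 in ASO2 replicate 3. Levels are given as CPM, the count divided by the library total after scaling by TMM factors. Gene-end regions were present for 7 of 8 adrenergic neuroblastoma markers, at 4.73 CPM (GATA3) to 32.8 CPM (PHOX2A), and TH had none analysed here. They were present for 3 of 5 mesenchymal markers, at 8.76 to 26.8 CPM, with none analysed here for PRRX1 or VIM. Of 7 markers of blood, epithelium, liver and endothelium, 2 had such a region, KRT8 and PECAM1, both at 2.36 CPM or less.

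The region at the start of ALK, chr2:29920743-29922030, was the second strongest of the ALK regions. Its mean of 26.3 CPM was higher than that of 78.9% of 13530 tested regions within 1 kb of a protein-coding gene end, whose median was 13.7 CPM. With NCA it had 21.5, 21.3 and 23.8 CPM, under ASO2 26.8, 31.1 and 23.7 CPM, and under ASO10 28.3, 32.5 and 27.5 CPM. All ASO10 libraries thus lay above the NCA libraries, while ASO2 replicate 3 fell just under NCA replicate 3. The log2 fold change against NCA was 0.40 ± 0.14 (SE) under ASO10 and 0.29 ± 0.14 (SE) under ASO2, with 95% intervals of 0.14 to 0.67 and 0.02 to 0.55. Neither passed an adjusted p of 0.05 in the quasi-likelihood test of edgeR, adjusted over all 119417 tested regions by the Benjamini-Hochberg method (adjusted p = 0.13 and 0.247); a region past it is called. ASO2 minus ASO10 was -0.12 on the log2 scale and was not called (95% interval -0.38 to 0.14, edgeR adjusted p = 0.749). Both ASO groups were set against the same NCA libraries. Over all tested gene-end regions the median log2 fold change against NCA was 0.086 under ASO10 and -0.053 under ASO2. In 8.51% of all tested regions the ASO10 libraries all lay above NCA.

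LTK was less open at its start. The region chr15:41512916-41514123 had a mean of 9.17 CPM, above 36.4% of gene-end regions, and 7.59 CPM per kb of region, against 20.4 CPM per kb at the ALK start. It had 9.57, 9.61 and 9.54 CPM with NCA, 8.92, 8.07 and 9.41 CPM with ASO2 and 9.05, 8.45 and 9.93 CPM with ASO10. All ASO2 libraries lay below the NCA libraries, replicate 3 only just, and the ASO10 libraries overlapped them. The log2 fold change was -0.12 ± 0.20 (SE; 95% interval -0.52 to 0.28, edgeR adjusted p = 0.837) under ASO2 and -0.07 ± 0.21 (SE; 95% interval -0.47 to 0.33, edgeR adjusted p = 0.943) under ASO10. The start region of LTK, like that of ALK, was thus not called in either comparison.

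The gene-end regions whose levels over the 9 libraries were most like those of the ALK start were at HAX1 (Pearson r = 0.975 of log2 CPM), SAP18 (r = 0.956) and SOCS1 (r = 0.95). For the LTK start they were at EFHD1 (r = 0.913), ZFP36L1 (r = 0.909) and STX3 (r = 0.903). Each was the top of 13529 comparisons over libraries that share depth and group, so these values are descriptions only.

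Inside ALK, more than 1 kb from either end, lay 64 regions, here called intronic, although exon boundaries were not used and a region may touch an exon. With 65 regions in its 728.8 kb span, ALK had 8.92 regions per 100 kb, more than 88.9% of 314 protein-coding genes longer than 500 kb, whose median was 4.13. Most intronic regions were weak: 38 had a mean under 2 CPM, 19 had 4 CPM or more and 3 had over 10 CPM. The 51 that were tested had a median of 5.94 CPM per kb, close to 6.18 CPM per kb over the 7751 other tested regions of chromosome 2. The other 13 intronic regions, like 2 flanking regions of ALK, had too few counts to be tested (mean 0.366 to 1.24 CPM, at most 29 counts in any library).

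Open regions were unevenly spread along the gene. ALK is transcribed towards lower coordinates, and of 4 equal parts of its span the one nearest the start held 10 intronic regions, none of 4 CPM or more, with a summed mean of 10.7 CPM. The next 3 held 11, 21 and 22, with 4, 7 and 8 regions of 4 CPM or more and summed means of 70.0, 63.1 and 90.0 CPM. The stretch that follows the start was therefore the weakest part of the gene. Of its regions 6 were tested, against 8, 16 and 21 in the next 3 parts. The 5 regions called under ASO2 were in those 3 (1, 2 and 2 of them). With so few tested in the part nearest the start, the lack of a call there says little about position.

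**Figure D1:**
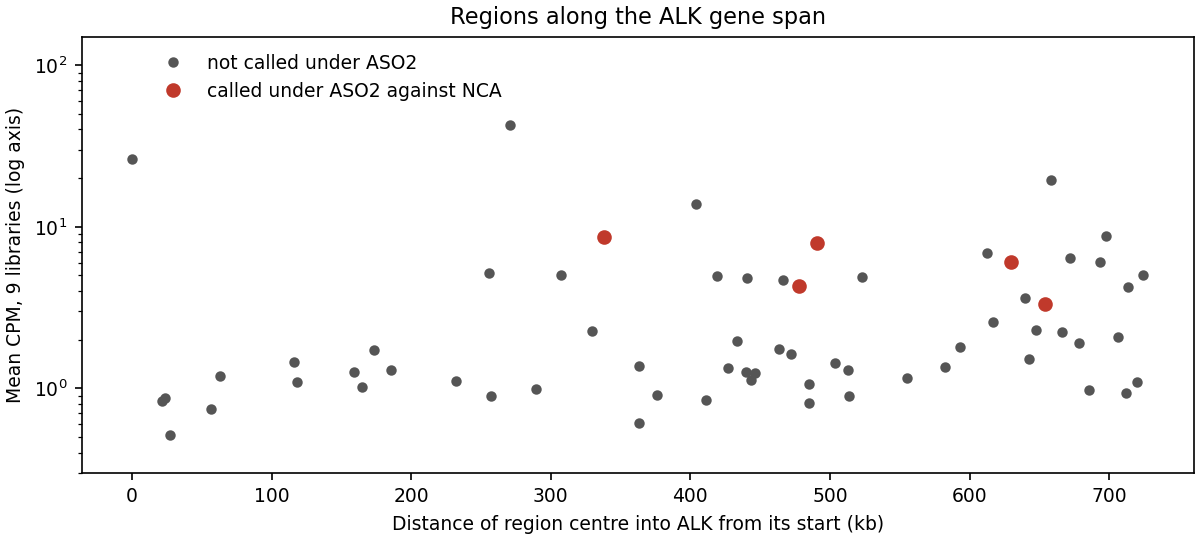
Mean CPM over 9 libraries (log axis) of the 65 regions in the ALK span against the distance of their centre from the gene start in kb. The start region (26.3 CPM) and the strongest intronic region (42.7 CPM) stand above the others, and the 5 regions called under ASO2 (red) lie between 338 and 654 kb.

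The strongest intronic region, chr2:29650504-29651599, lay 271 kb into the gene and held 18.2% of the summed intronic CPM. It was stronger than the start region and had 38.9, 35.4 and 44.6 CPM with NCA, 40.6, 46.6 and 33.6 CPM with ASO2 and 47.0, 44.3 and 53.1 CPM with ASO10. The groups overlapped, although 2 of 3 ASO10 libraries exceeded every NCA library. Its log2 fold change was 0.02 ± 0.12 (SE; 95% interval -0.21 to 0.25) under ASO2 and 0.28 ± 0.12 (SE; 95% interval 0.05 to 0.51) under ASO10, and neither was called (edgeR adjusted p = 0.963 and 0.328).

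The next strongest was chr2:29262430-29263321, 659 kb into the gene, which had 19.1 ± 3.02 CPM with NCA, 21.1 ± 1.11 with ASO2 and 18.6 ± 3.85 with ASO10 (SD, n = 3 each). The region chr2:29516878-29518317, 404 kb into the gene, had 12.8 ± 1.51, 13.1 ± 2.36 and 15.9 ± 3.27 CPM in the same order. Neither was called in any of the 3 comparisons, and their groups overlapped.

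The region chr2:29223369-29224665 covered the internal ALK start at 29223823, a further start in the RefSeq table, before which the CACGTG shown above lies. It had 5.79, 7.88 and 9.43 CPM with NCA, 8.92, 9.65 and 9.95 CPM with ASO2 and 7.91, 8.23 and 11.5 CPM with ASO10. Its mean of 8.80 CPM was below that of the main start, and the groups overlapped. The log2 fold change was 0.30 ± 0.21 (SE; 95% interval -0.11 to 0.71, edgeR adjusted p = 0.506) under ASO2 and 0.24 ± 0.21 (SE; 95% interval -0.17 to 0.66, edgeR adjusted p = 0.744) under ASO10.

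The first comparison set each NESPR oligonucleotide against NCA. Under ASO2, 5 members were called, 4 higher and 1 lower, and all 5 were intronic ALK regions. They were 7.25% of the 69 tested members, against 5.60% of all tested regions (4.80% higher and 0.807% lower). The share among all members was thus near the background. Of the 51 tested intronic ALK regions alone it was 9.8%, against 6.12% of tested regions over 1 kb from gene ends. Among those with a mean of 4 CPM or more it was 21.1% of 19, against 14.0%. That mean is over all 9 libraries, so the limit is not independent of a change under ASO2. The region at 478 kb (2.99 CPM with NCA, 6.45 with ASO2) passed it. The called region at 654 kb (4.23 CPM with NCA, 1.84 with ASO2) did not. No test was run over the members. With loess offsets the split was 3 higher and 2 lower in place of 4 and 1, without the ALK region at 491 kb and with a region near LTK that was lower. DESeq2 called 2 of the 5, both higher, and without NCA replicate 1 edgeR called 1. Under ASO10, 0 of 69 members were called by edgeR, against a background of 1.09% (0.875% higher and 0.210% lower), and DESeq2 called 0 as well. By edgeR 3 higher and 2 lower (4.35% and 2.90%) had an unadjusted p under 0.05, against 5.99% and 4.56% of all tested regions. The median log2 fold change of the tested intronic ALK regions was 0.14 under ASO2 and 0.061 under ASO10. Over tested regions more than 1 kb from gene ends it was -0.015 and -0.027, and over all tested regions -0.024 and -0.0068.

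The region with the strongest support, chr2:29291341-29291879, lay 630 kb into ALK. It had 4.91, 2.59 and 4.44 CPM with NCA, 7.82, 10.5 and 7.98 CPM with ASO2 and 5.62, 5.67 and 4.96 CPM with ASO10. All 6 ASO libraries lay above all NCA libraries, and the ASO2 libraries above the ASO10 libraries. It rose 2.2-fold with ASO2, by 1.14 ± 0.26 (SE) on the log2 scale (edgeR adjusted p = 0.000594). Under ASO10 the log2 fold change was 0.44 ± 0.27 (SE; 95% interval -0.08 to 0.97, edgeR adjusted p = 0.589). Its ASO2 call held in each of the 17 alternative fits, with adjusted p from 0.000438 to 0.0363. The difference between the ASOs was 0.69 ± 0.25 (SE) and was not called (edgeR adjusted p = 0.10).

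The region chr2:29443300-29443873, 478 kb into ALK, rose 2.14-fold under ASO2. It had 2.90, 2.96 and 3.11 CPM with NCA, 7.55, 5.98 and 5.83 CPM with ASO2 and 4.13, 3.67 and 2.67 CPM with ASO10. The ASO2 libraries lay above the other 6, and those of ASO10 overlapped NCA. The log2 fold change with ASO2 was 1.10 ± 0.31 (SE; edgeR adjusted p = 0.0117). The call was lost when NCA replicate 1 (adjusted p = 0.0536) or ASO2 replicate 1 (adjusted p = 0.10) was left out, within a range of 0.00858 to 0.10 over 17 alternatives. Under ASO10 the log2 fold change was 0.23 ± 0.33 (SE; edgeR adjusted p = 0.863), and between the ASOs 0.87 ± 0.30 (SE; edgeR adjusted p = 0.0898).

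The regions at 338 and 491 kb rose less under ASO2 and were the only members called between the ASOs. The region chr2:29583218-29584074, 338 kb into ALK, had 7.18, 5.17 and 9.65 CPM with NCA, 11.9, 14.2 and 9.86 CPM with ASO2 and 6.19, 6.34 and 7.25 CPM with ASO10. The ASO2 libraries lay above the other 6, with the lowest of them only just above NCA replicate 3. On the log2 scale the change against NCA was 0.70 ± 0.21 (SE; edgeR adjusted p = 0.0208) under ASO2 and -0.16 ± 0.22 (SE; edgeR adjusted p = 0.854) under ASO10. The call under ASO2 was lost with DESeq2 and without NCA replicate 1, NCA replicate 2, ASO2 replicate 1 or ASO2 replicate 2 (adjusted p from 0.00526 to 0.275 over 17 alternatives).

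The region chr2:29430386-29431498, 491 kb into ALK, had 4.78, 6.53 and 8.87 CPM with NCA, 10.6, 11 and 10.8 CPM with ASO2 and 6.19, 6.67 and 6.24 CPM with ASO10. The ASO2 libraries were close together and above all others, while the ASO10 values lay within the range of NCA. On the log2 scale the change was 0.67 ± 0.22 (SE; edgeR adjusted p = 0.04) under ASO2 and -0.09 ± 0.23 (SE; edgeR adjusted p = 0.934) under ASO10. Of all calls under ASO2 this was lost most often, in 7 of 17 alternatives. These were loess offsets, DESeq2, and the fits without NCA replicate 1, NCA replicate 2 or any 1 of the ASO2 replicates (adjusted p from 0.0115 to 0.335 over all alternatives).

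A single member fell under ASO2. The region chr2:29267635-29268104, 654 kb into ALK, had 5.16, 3.33 and 4.21 CPM with NCA, 2.33, 2.1 and 1.08 CPM with ASO2 and 5.85, 3.0 and 2.93 CPM with ASO10. The ASO2 libraries lay below the other 6. On the log2 scale the change was -1.23 ± 0.38 (SE; edgeR adjusted p = 0.0255) under ASO2, or 0.426-fold of NCA, and -0.11 ± 0.35 (SE; edgeR adjusted p = 0.95) under ASO10. The call under ASO2 was lost with DESeq2 and without NCA replicate 1, NCA replicate 3 or ASO2 replicate 3 (adjusted p from 0.0126 to 0.22 over 17 alternatives).

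**Figure D2:**
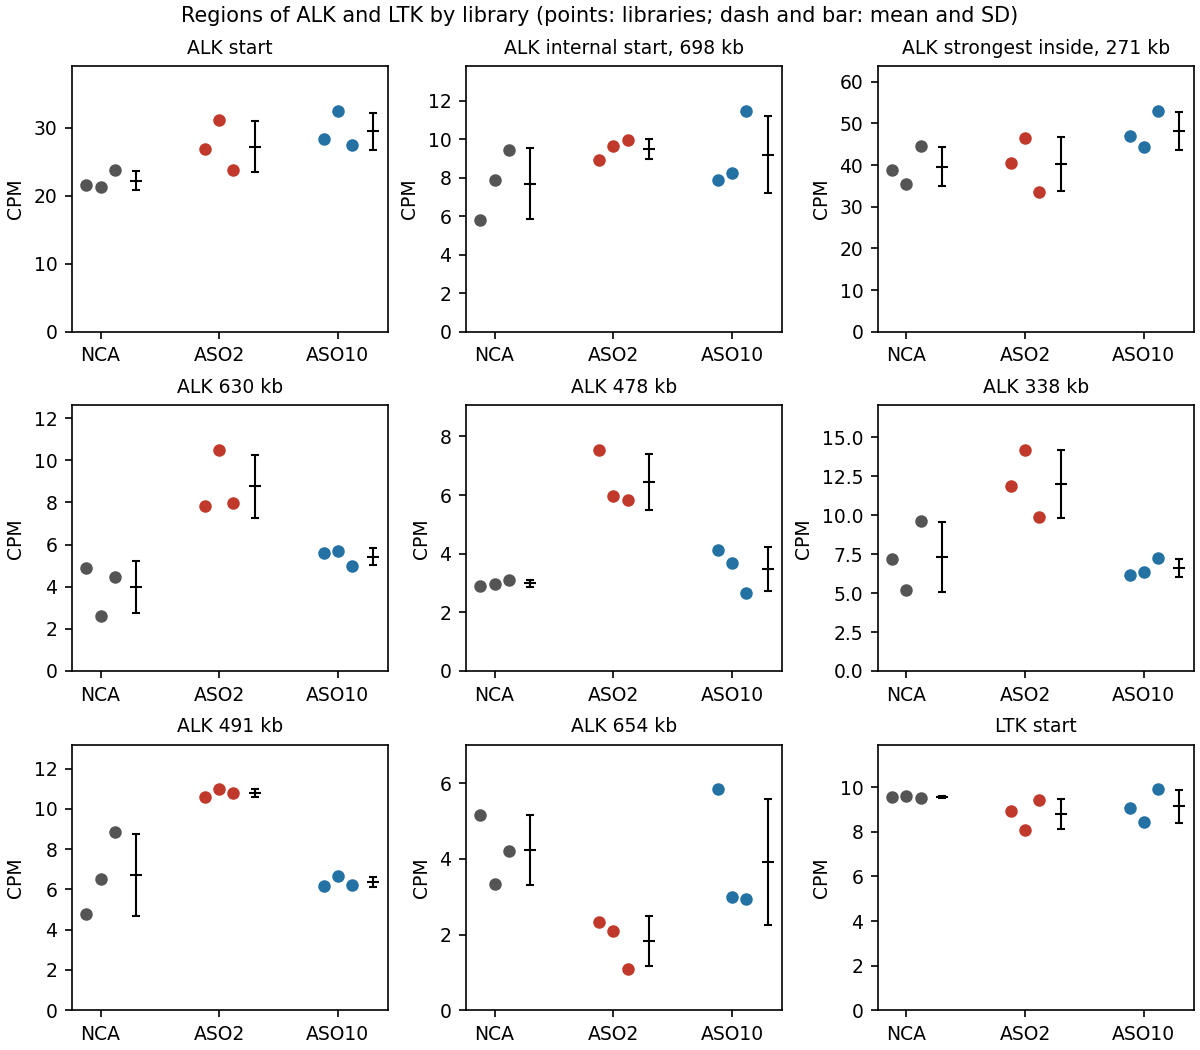
CPM in each library for 8 ALK regions and the LTK start region, with NCA in grey, ASO2 in red and ASO10 in blue; points are libraries, the dash and bar the mean and SD of 3. The 3 ASO2 libraries lie above all others at 630, 478, 338 and 491 kb and below them at 654 kb, while the groups overlap at the internal start and at the strongest intronic region.

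**Figure D3:**
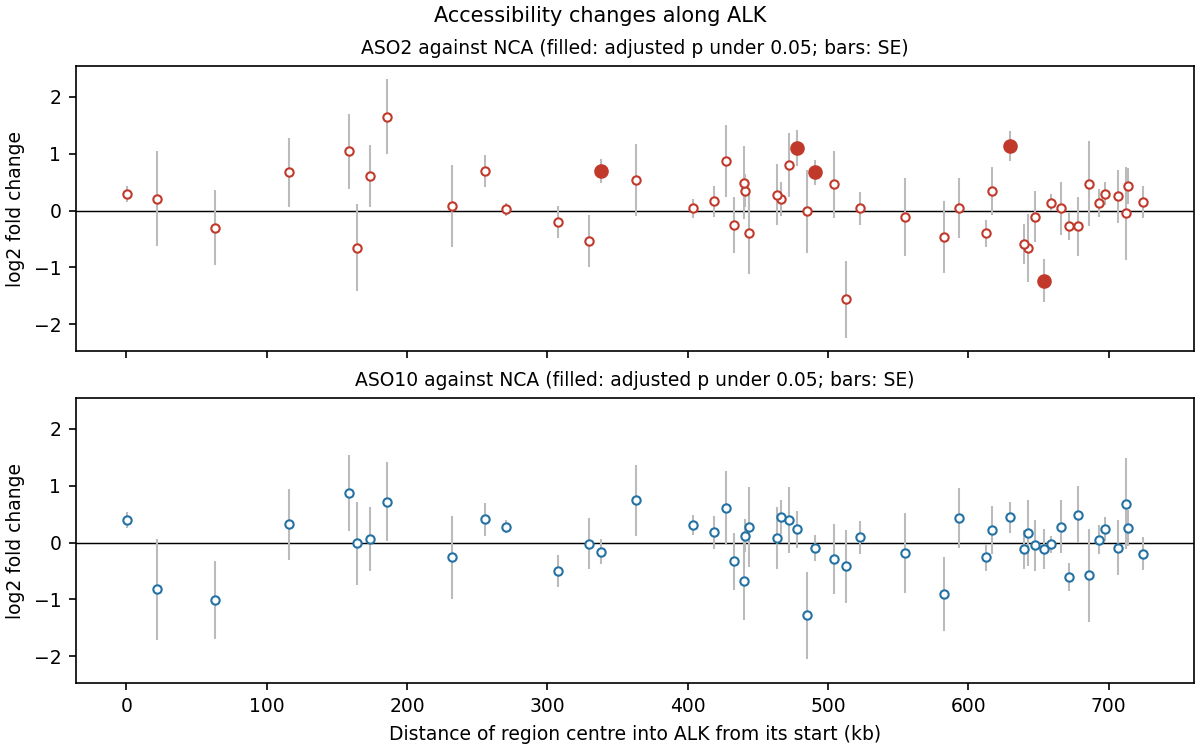
log2 fold change against NCA (bars: SE) of the tested regions in the ALK span by distance from the gene start in kb, for ASO2 (upper panel) and ASO10 (lower panel). Filled points passed an adjusted p of 0.05: 4 above and 1 below 0 under ASO2, and 0 under ASO10.

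The second comparison set the NESPR oligonucleotides against each other. Between ASO2 and ASO10, 2 of 69 tested members were called, both higher under ASO2, a share of 2.90% against a background of 3.23% (2.55% higher and 0.682% lower). They were the regions at 338 kb (0.86 ± 0.21 SE, edgeR adjusted p = 0.00422) and at 491 kb (0.76 ± 0.22 SE, edgeR adjusted p = 0.0237). The call at 491 kb was lost with loess offsets, DESeq2 and without any 1 of the ASO2 or ASO10 replicates (adjusted p from 0.012 to 0.104 over 17 alternatives), and that at 338 kb only without ASO2 replicate 2 (adjusted p = 0.101, of 0.0021 to 0.101). At 654 kb the difference was -1.13 ± 0.38 (SE; edgeR adjusted p = 0.0734) and passed only when at least 10 counts were required in every library (adjusted p = 0.0417, of 0.0417 to 0.55 over 17 alternatives). For 3 of the 5 regions called under ASO2, those at 630, 478 and 654 kb, a difference between the ASOs was thus not called.

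Groups that did not overlap were counted among the members and among all tested regions. The ASO2 libraries were all above NCA in 8 tested members and all below in 5, which is 11.6% and 7.25%, against 11.9% and 8.57% of all tested regions. For ASO10 it was 4 above and 1 below, 5.80% and 1.45%, against 8.51% and 7.15%. Between the ASOs, ASO2 was all above in 7 members (10.1%) and all below in 3 (4.35%), against 11.1% and 8.29%. All 6 ASO libraries lay above NCA in 2 members (2.90%, against 3.27%). They were the region at 630 kb and chr2:29665349-29666239, 256 kb into ALK, which had 3.92 ± 0.438 CPM with NCA, 6.29 ± 1.11 with ASO2 and 5.21 ± 0.682 with ASO10 (SD, n = 3 each) and was named after its values were seen. None lay below NCA in all 6 ASO libraries, against 2.46%.

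Summed over the 64 intronic regions, ALK had 216, 220 and 228 CPM with NCA, 247, 262 and 230 CPM with ASO2 and 228, 238 and 236 CPM with ASO10. The sum was lowest in NCA and did not overlap with ASO2, although NCA replicate 3 and ASO2 replicate 3 were close. It includes the 5 regions called under ASO2. Over the 45 regions with a mean under 4 CPM it was 63.7 ± 8.95 CPM with NCA and 63.6 ± 4.56 with ASO2. Over the 19 of 4 CPM or more it was 158 ± 12.3 and 183 ± 18.8 CPM (SD, n = 3 each). There ASO2 replicate 3 (166 CPM) lay below NCA replicate 3 (171 CPM). The 19 and the 45 were split by the mean of all 9 libraries, ASO2 included. A rise under ASO2 thus helps a region into the 19 and a fall into the 45, so these sums are not independent of the split. The per-library sums describe the members and were not tested.

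With ASO10, the smallest p of any member that had a lower level was that of chr2:29249594-29250072, 672 kb into the gene, which had 7.72 ± 0.641 CPM with NCA, 6.30 ± 1.23 with ASO2 and 5.08 ± 1.70 with ASO10 (SD, n = 3 each). Its log2 fold change under ASO10 was -0.61 ± 0.25 (SE; edgeR adjusted p = 0.288), and ASO10 replicate 3 overlapped NCA. Beyond its ends ALK had 3 flanking regions, all towards CLIP4, and the strongest, chr2:29164007-29164684 inside the CLIP4 span, had 1.88 ± 0.0989 CPM with NCA, 2.22 ± 1.34 with ASO2 and 1.29 ± 0.488 with ASO10. It was not called in any comparison (edgeR adjusted p from 0.50 to 0.852).

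Around LTK the 7 flanking regions lay mostly at other genes. The strongest, chr15:41557714-41560059, lay 0.33 kb from the near end of TYRO3, which encodes another receptor tyrosine kinase, and had 29.0, 25.1 and 25.4 CPM with NCA, 27.7, 30.1 and 27.9 CPM with ASO2 and 31.4, 35.5 and 29.4 CPM with ASO10. The ASO10 libraries lay above NCA, and those of ASO2 overlapped it. On the log2 scale the change was 0.11 ± 0.13 (SE) under ASO2 and 0.28 ± 0.13 (SE) under ASO10, neither called (edgeR adjusted p = 0.743 and 0.408). Regions at an end of ITPKA (chr15:41492899-41494471) and RPAP1 (chr15:41543891-41544872) had means of 20.2 and 13.2 CPM.

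Inside RPAP1, 16.8 kb upstream of the LTK start, chr15:41530027-41531139 had 13.0 ± 2.40 CPM with NCA, 9.30 ± 1.82 with ASO2 and 11.7 ± 2.01 with ASO10 (SD, n = 3 each). It was singled out after its values were seen. Its log2 fold change with ASO2 was -0.49 ± 0.19 (SE; edgeR adjusted p = 0.106), and it was called with loess offsets (adjusted p = 0.0497) and without NCA replicate 2 (adjusted p = 0.0443), and in no other of the 17 alternatives. LTK regions were otherwise not called in any comparison, with 0 of 8 by edgeR and by DESeq2, and the 8 had 1 higher and 1 lower under ASO2, 1 higher under ASO10 and 0 between the ASOs at an unadjusted p under 0.05. Over all tested regions those shares were 10.3% higher and 6.22% lower under ASO2 and 5.99% higher under ASO10, and between the ASOs 8.53% higher and 6.06% lower.

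The ligand genes had no region of their own among those analysed. The region nearest to ALKAL1 (chr8:52534037-52565430) was centred 7.51 kb outside the span, and all 7 members of this gene were flanking regions with a summed 16.0 ± 0.556 CPM with NCA, 14.5 ± 2.81 with ASO2 and 15.2 ± 4.47 with ASO10. The strongest of them, chr8:52577482-52578230, had 4.91 ± 0.141, 3.73 ± 1.75 and 3.61 ± 0.659 CPM in the same order (SD, n = 3 each). By edgeR and by DESeq2 0 of 7 were called in each comparison, and 0 had an unadjusted p under 0.05 by edgeR.

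For ALKAL2 (chr2:279558-288091), the ligand gene near the tip of the short arm of chromosome 2, the only member was chr2:264165-265358, which is centred 14.8 kb from its span. That region lies 0.06 kb from an end of SH3YL1, which encodes an SH3-domain protein, and is thus much nearer to another gene. It had 12.7, 9.12 and 14.3 CPM with NCA, 9.88, 12.0 and 9.77 CPM with ASO2 and 10.1, 9.34 and 7.51 CPM with ASO10, and the groups overlapped. Its log2 fold change was -0.20 ± 0.19 (SE; 95% interval -0.57 to 0.18, edgeR adjusted p = 0.668) under ASO2 and -0.42 ± 0.19 (SE; 95% interval -0.80 to -0.04, edgeR adjusted p = 0.387) under ASO10. In order of level at the start, the genes thus ran from ALK to LTK, while the ligand genes had no value.

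Genes of ALK signalling were examined at their ends, together with the ligands PTN and MDK, their receptor PTPRZ1 and the related receptors INSR, IGF1R, INSRR and ROS1. Regions centred within 1 kb of an end were present for 61 of these 63 genes, 69 regions in all, with none analysed here for VGF and ROS1. With ASO2, 1 of the 69 was called, higher (1.45%), against 1.53% of all gene-end regions (0.569% higher and 0.961% lower). With ASO10, 3 were called, all higher (4.35%), against 2.14% (2.03% higher and 0.118% lower). Between ASO2 and ASO10, 4 were called, all lower under ASO2 (5.80%), against 3.31% (2.93% lower and 0.377% higher). The median log2 fold change of the 69 was 0.012 under ASO2 and 0.17 under ASO10, against -0.053 and 0.086 over all gene-end regions. Between ASO2 and ASO10 it was -0.16, close to -0.15 over all gene-end regions. With loess offsets the ASO10 medians were 0.068 and 0.016, and with total counts the ASO2 median was -0.0019.

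A region of this list lies within 1 kb of either end of its gene and need not be at the start. Among ERK pathway outputs, the gene-end region of ETV1, an ETS-family transcription factor, rose under ASO2 (chr7:13890814-13891209). Which end of ETV1 it lies at was not examined. The region went from 2.32 ± 0.813 to 5.89 ± 1.89 CPM (SD, n = 3 each), with 3.30 ± 0.361 CPM under ASO10. Its log2 fold change was 1.34 ± 0.33 (SE; edgeR adjusted p = 0.00268), and the call was lost without ASO2 replicate 2 (adjusted p = 0.111, of 0.00137 to 0.111 over 17 alternatives). EGR1, an immediate early transcription factor, rose with ASO10 at chr5:138463919-138465929, from 57.5 ± 6.48 to 75.9 ± 6.36 CPM (0.40 ± 0.11 SE on the log2 scale, edgeR adjusted p = 0.0293). No other of the 15 regions of outputs was called in any comparison.

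In the PI3K and JAK-STAT arm, STAT3, a transcription factor activated by JAK kinases, rose with ASO10 at chr17:42388027-42389157, from 35.3 ± 1.01 to 48.2 ± 0.72 CPM (0.45 ± 0.12 SE, edgeR adjusted p = 0.0239). PIK3R1 (chr5:68214793-68216779), a regulatory subunit of PI3 kinase, had 34.3 ± 2.36 CPM with NCA, 33.0 ± 4.94 with ASO2 and 46.1 ± 1.30 with ASO10 (SD, n = 3 each). It rose under ASO10 (0.43 ± 0.12 SE, edgeR adjusted p = 0.0435) and was lower under ASO2 than ASO10 (-0.48 ± 0.12 SE, edgeR adjusted p = 0.00555). FOXO3, a transcription factor restrained by AKT, and the MAPK pathway kinase MAPK3 were also lower under ASO2 than ASO10, by -0.39 ± 0.11 and -0.64 ± 0.20 (SE; edgeR adjusted p = 0.0215 and 0.0378). The FOXO3 value is that of chr6:108557836-108561763. Its other gene-end region, chr6:108684759-108685295, was not called (0.07 ± 0.25 SE, edgeR adjusted p = 0.939). Of the 3 ASO10 calls against NCA, 0 held with loess offsets, a replicate block, or without NCA replicate 1, NCA replicate 2 or any 1 of the ASO10 replicates, and 1, EGR1, held without NCA replicate 3. The 4 calls between the ASOs were all lost without ASO2 replicate 3 or ASO10 replicate 3. The regions of adaptors (15), phosphatases and CBL (4), the ligands PTN and MDK with their receptor PTPRZ1 (3) and related receptors (4) had 0 calls by edgeR and by DESeq2 in each comparison. At an unadjusted p under 0.05 by edgeR, of the adaptor regions, which belong to proteins that couple receptors to RAS and PI3 kinase, 2 were lower under ASO2 (GAB1 and GAB2), 3 higher under ASO10 (GRB2, SHC1 and CRKL) and 5 lower under ASO2 than ASO10 (FRS3, IRS2, CRK, CRKL and DOK1). The same limit was met by CBL and IGF1R, both higher under ASO10 and lower under ASO2 than ASO10, and by PTPRZ1, lower under ASO2 than ASO10. Over all gene-end regions 7.24% were lower under ASO2, 14.3% higher under ASO10 and 17.8% lower under ASO2 than ASO10 at that limit. These genes were named after their values were seen.

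**Figure D4:**
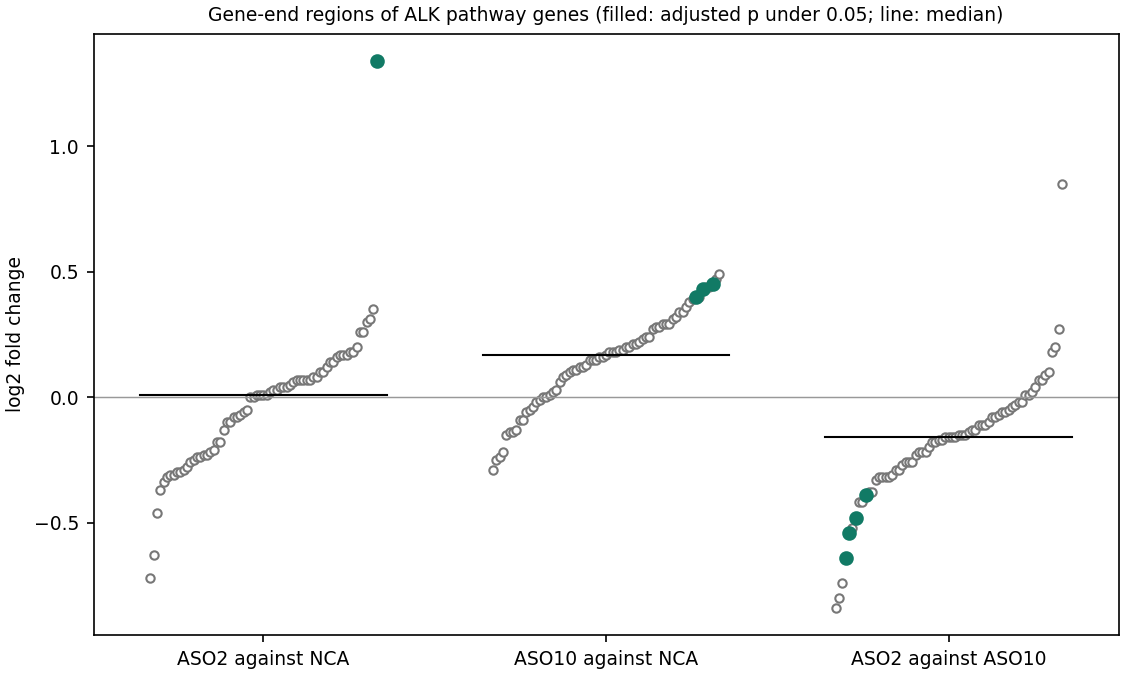
log2 fold change of the 69 gene-end regions of ALK pathway and related genes in each comparison, ordered by size, with called regions filled and the median as a line. The medians are 0.012, 0.17 and -0.16, against -0.053, 0.086 and -0.15 over all gene-end regions, and 1, 3 and 4 regions are called.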

How the data were processed

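The authors deposited whole-number counts, 1 shared set of 148797 regions in 9 ATAC-seq libraries, with no normalization. Per the submitters' processing notes the tools were FastQC, Bowtie2 2.2.6, SAMtools, MACS2 2.1.2 and DESeq2 1.42.0, and the build GRCh38. RNA is named as the molecule in the labels, but their protocol tagments genomic DNA, so the values were read as ATAC-seq. Filters, Tn5 shift and the unit counted are not given in the sources used here. Regions called by a peak caller depend on the libraries, so no region does not mean closed chromatin.

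Genes and starts came from RefSeq (GRCh38.p14), 1-based. filterByExpr left 119417 regions, and 69 of 84 members. TMM scaling, edgeR 4.0.16 (R 4.3.3) quasi-likelihood tests over all 9 libraries and Benjamini-Hochberg adjustment followed. The biological coefficient of variation was 23.5%. SE came from the F statistic. The fit was tested on simulated data.

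Members, lists and limits were chosen with earlier results of these data known. Regions named were those at gene ends, the 5 strongest inside ALK, all called members, the smallest p per comparison and direction, and the strongest flank of each gene. Alternatives were RLE factors, total counts, loess offsets (span 0.3), DESeq2 1.42.0, no filter, only the groups compared, a minimum of 10 counts in every library, a log2 fold change over 1, a block for replicate number, 10 kb flanks and leaving out each library. Their use on pathway genes was added after seeing the data. No library was a copy of another: between replicates, chi-square over its degrees of freedom was 2.74 to 3.42. Tables and figures used Python 3.11.15, pandas 2.3.3 and matplotlib 3.10.9. The values of 1 called pathway region are not reported here.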

Additional observations from a re-analysis of the deposited data

Results flagged for a closer look

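The regions of ALK at chr2:29430386-29431498 and chr2:29583218-29584074 stand here because the direct comparison of ASO2 with ASO10 called them, with log2 fold changes of 0.76 and 0.86 and edgeR adjusted p-values of 0.0237 and 0.00422. The 2 were 2.90% of tested members, against 3.23% of all tested regions. In both, 3 of 3 ASO2 libraries lay above all ASO10 libraries, as in 11.1% of all tested regions. Without ASO2 replicate 2 neither was called (adjusted p = 0.0919 and 0.101, of 0.012 to 0.104 and 0.0021 to 0.101 over 17 alternatives each). The call at chr2:29430386-29431498 held in 9 of 17 alternatives, and that at chr2:29583218-29584074 in 16. No cause was tested.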

How the results depend on the processing

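Of 949 pairs of a named result and an alternative, 871 kept their side of the threshold, 77 lost a call and 1 gained one. Most of these results were not called in the main fit, so most of the 871 pairs had no call to lose. In 21 pairs the sign was another than reported, none of them called. Counts of called members under ASO2 (5) became 2 with DESeq2 and 3 with a log2 fold change over 1, and 1 to 5 when each library was left out, lowest without NCA replicate 1. Loess offsets gave 3 higher and 2 lower in place of 4 and 1. Between the ASOs the 2 calls became 1 with loess offsets, 1 with DESeq2 and 0 with a log2 fold change over 1, and 0 to 2 when each library was left out, lowest without ASO2 replicate 2. Under ASO10 the count stayed 0 in all alternatives run. Pathway calls under ASO2 (1) became 3 with loess offsets, 3 with at least 10 counts in every library and 0 to 1 when a library was left out. Under ASO10 (3) they became 0 with loess offsets, the replicate block or a log2 fold change over 1, 1 with DESeq2, and 0 to 3 when a library was left out. Between the ASOs (4) they became 2 with loess offsets or DESeq2, 0 with a log2 fold change over 1, and 0 to 6 when a library was left out, lowest without ASO2 replicate 3 or ASO10 replicate 3. The cause of these changes was not tested. Leaving out a library left fewer samples and also changed the filter, with 76 to 79 members tested in place of 69.

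Replicate numbers are shared by the groups. Deviations of same-numbered libraries correlated by -0.0363 to 0.0126, against -0.0214 to 0.0307 between libraries of other numbers. These values show no pairing by number but cannot exclude it, since many regions had few counts. With a replicate block the member counts stayed 5, 0 and 2, and the pathway count under ASO10 became 0. Depth limits the weak regions: 15 of 84 members had too few counts to be tested.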
